A study of Homo sapiens with 18 samples.

Results

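The 7 genes described here are BRD2 and BRD3, which encode bromodomain and extra-terminal (BET) proteins, CDK9, CCNT1 and CCNT2, which encode the kinase and the cyclins of the elongation factor P-TEFb, its inhibitor HEXIM1, and SERPINI1, which encodes the secreted serine protease inhibitor neuroserpin. They were chosen by symbol, 7 of the 20145 genes in the count table, and followed through all 6 conditions of the study. All 7 passed the filter on low counts. RNA came from LNCaP cells, an androgen-sensitive human prostate adenocarcinoma line, grown in RPMI with serum and treated for 72 h. Vehicle controls received DMSO. The 5 compounds were ACBI (0.2 µM), 2-77 (1 µM), BD98 (2 µM), ENZA (10 µM) and P-16 (10 µM), and each of the 6 groups had 3 libraries. ENZA is read as enzalutamide, an antagonist of the androgen receptor. The labels give no target for the other compounds, and the series title concerns selective inhibitors of the BRD7 bromodomain in prostate cancer. All groups are the same line in the same medium, and the labels do not say whether replicates are separate cultures, so the p-values measure only the spread between these libraries. Only P-16 and ENZA share a dose, so any other contrast between compounds is also one between doses.

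BET proteins bind acetylated lysines on histones through paired bromodomains and help bring P-TEFb to promoters. P-TEFb is CDK9 with a T-type cyclin, and it phosphorylates RNA polymerase II and the pausing factors so that a paused polymerase can elongate. Much of the cell's P-TEFb is held inactive by HEXIM1 on the 7SK RNA. Drugs that displace BET proteins from chromatin raise HEXIM1 mRNA in many cell types and SERPINI1 in several, so both transcripts are used as readouts of such drugs. HEXIM1 has also been described as a restraint on the androgen receptor.

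Libraries held 16835093 to 36975028 counts. Levels are given in CPM, a gene's counts relative to its library's total after scaling for composition. The first principal component held 58.4% of the variance between libraries. ACBI replicate 3 carried 8.6% ribosomal RNA, against 0.639% to 2.09% in the other 17 libraries. All 7 luminal and LNCaP markers were present, with sums of 8530 to 8590 CPM in DMSO, 4010 to 4210 CPM in ACBI and 4720 to 6540 CPM in the other treated libraries. The summed mesenchymal markers (3 of 4 in the table) ranged from 2530 to 2740 CPM in ACBI and from 532 to 1010 CPM in all other libraries, and the neuroendocrine ones (3 of 4) from 14.1 to 15.7 CPM against 2.59 to 4.22 CPM. Most of these sums came from FN1 and SYP, while KRT14 of basal cells (0 to 2.1 CPM), CHGA of neuroendocrine cells (0 to 0.166 CPM) and PTPRC of leukocytes (0 to 0.0543 CPM) were at or near 0 throughout. CD68, another marker of the immune list, was at 4.12 to 7.13 CPM over all libraries. The part of these differences in the results below was not tested.

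The upstream sequences of 3 members are shown because HEXIM1 moved in every treated group while BRD2 and BRD3 moved apart from each other in ACBI. Each is the 250 bases before the RefSeq start (GRCh38.p14) that equals the start of the gene in the count table, read 5′ to 3′ on the gene's strand. Capitals mark matches on either strand to the TATA box (letters TATAAA), the CCAAT box (letters CCAAT) and the GC box (letters GGGCGG).
HEXIM1: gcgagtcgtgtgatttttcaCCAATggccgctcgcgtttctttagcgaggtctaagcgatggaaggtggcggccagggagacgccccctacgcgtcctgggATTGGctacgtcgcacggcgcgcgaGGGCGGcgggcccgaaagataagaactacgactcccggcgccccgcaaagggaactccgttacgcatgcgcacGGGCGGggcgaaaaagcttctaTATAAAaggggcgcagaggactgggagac
BRD2: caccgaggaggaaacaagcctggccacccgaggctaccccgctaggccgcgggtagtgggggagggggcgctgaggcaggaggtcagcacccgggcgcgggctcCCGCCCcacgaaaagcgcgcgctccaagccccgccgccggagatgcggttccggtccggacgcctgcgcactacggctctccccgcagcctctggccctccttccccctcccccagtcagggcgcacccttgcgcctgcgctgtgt
BRD3: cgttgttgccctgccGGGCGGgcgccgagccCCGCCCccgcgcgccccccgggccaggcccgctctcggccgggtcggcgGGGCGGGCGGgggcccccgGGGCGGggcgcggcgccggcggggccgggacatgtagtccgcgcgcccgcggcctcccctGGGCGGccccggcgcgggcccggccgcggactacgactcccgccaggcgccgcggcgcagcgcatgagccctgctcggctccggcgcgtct
The HEXIM1 sequence lies at chr17:45148225-45148474 (plus strand), the BRD2 sequence at chr6:32968344-32968593 (plus strand) and the BRD3 sequence at chr9:134068027-134068276 (minus strand). HEXIM1 has 1 TATAAA match, which begins 29 bases before the start, 2 matches to CCAAT and 2 to GGGCGG. BRD2 has 1 match to GGGCGG, BRD3 has 6, and neither has TATAAA or CCAAT. The printed HEXIM1 window overlaps an annotated exon of another gene, AC142472.1. SERPINI1 also rose in every treated group, but its window overlaps an annotated exon of SERPINI1 itself and is not printed. That window has 0 matches to TATAAA, 0 to CCAAT and 0 to GGGCGG, at 64.8% GC. Over 35116 RefSeq windows of the same length, TATAAA occurred in 10.7%, CCAAT in 32.0% and GGGCGG in 42.6%. The GC content was 62.4% in HEXIM1, 74.0% in BRD2 and 86.8% in BRD3, against a median of 58.0% over those windows. BRD2 has 3 further RefSeq starts, whose windows held 47.6% to 66.4% GC and at most 1 GGGCGG match. These are letter matches, and no binding was measured.

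In DMSO, the members covered a wide range of abundance. Divided by exon length (GENCODE v29), BRD2 was highest at 87.9 ± 1.0 CPM per kb (SD, n = 3). CDK9 at 26.4 ± 1.4 and HEXIM1 at 24.1 ± 0.86 CPM per kb followed. BRD3 was at 16.5 ± 0.24, CCNT1 at 13.1 ± 0.19 and CCNT2 at 8.78 ± 0.51 CPM per kb. SERPINI1 was lowest at 1.92 ± 0.22 CPM per kb and rested on 66 to 107 counts per DMSO library, so it is the least precise member. In ACBI, HEXIM1 stood at 61.9 ± 2.1 CPM per kb, above CDK9 at 28.5 ± 0.93.

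**Figure D1:**
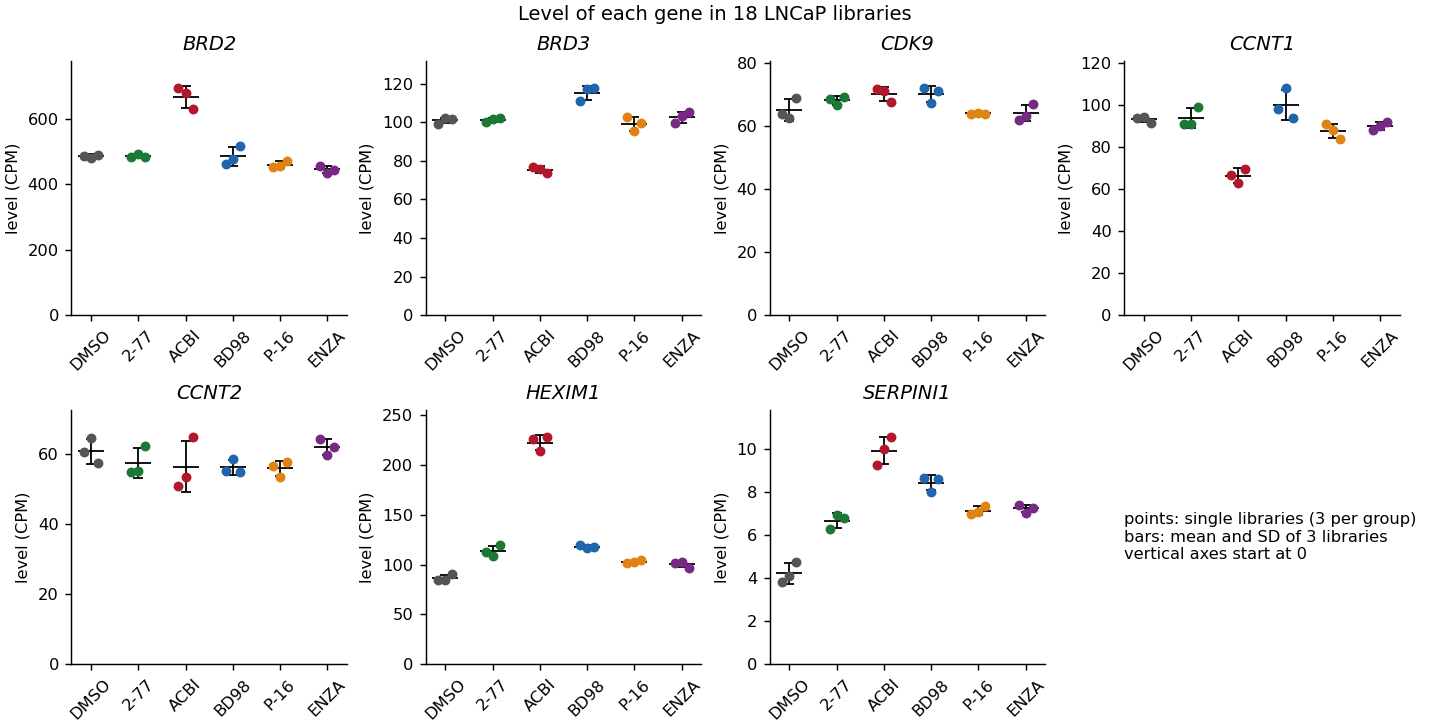
Level of each of the 7 genes (vertical axes, CPM from 0) in the 6 conditions (horizontal axes), with 1 point per library and bars for the mean and SD of 3 libraries. HEXIM1 and SERPINI1 lie above all DMSO libraries in every treated group, BRD2 is highest and BRD3 and CCNT1 are lowest in ACBI, and CDK9 and CCNT2 overlap DMSO in all groups.

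Against DMSO, 2 of the 7 members rose with 2-77 and 5 did not pass, where 40.7% of the 15422 genes tested were called (20.5% higher, 20.2% lower). With ACBI, 4 rose and 2 fell, against 72% of all genes called (35.4% higher, 36.6% lower). With BD98, 3 rose, against 49% called (24.5% in each direction). With P-16, 2 rose, against 24% called (12.4% higher, 11.6% lower). With ENZA, 2 rose and 1 fell, against 36.3% called (18.2% higher, 18.1% lower). The members' counts are near these backgrounds, so they are no result about the 7 as a group, and what follows describes which members moved. The median log2 difference of the 7 was 0.0062, 0.11, 0.11, -0.026 and 0.023 in that order of compounds, beside 0.00086, -0.0078, -0.0021, -0.0028 and 0.0011 over all genes tested. All 5 comparisons use the same 3 DMSO libraries. A gene is called at an adjusted p under 0.05 in edgeR's quasi-likelihood test with Benjamini-Hochberg adjustment over all genes tested, which also gave every adjusted p below.

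**Figure D2:**
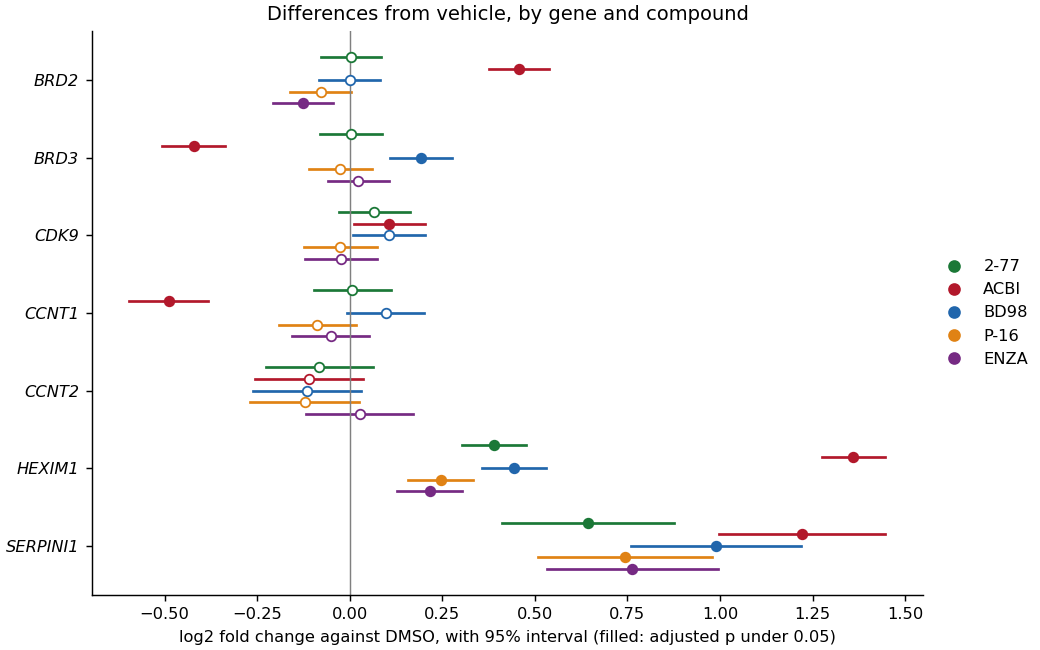
Log2 fold change against DMSO (horizontal axis) of the 7 genes (vertical axis) for 5 compounds (colours), with 95% intervals from edgeR and filled points for an adjusted p under 0.05. All 5 intervals for HEXIM1 and for SERPINI1 lie above 0, and ACBI moves BRD2 up and BRD3 and CCNT1 down.

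HEXIM1, the inhibitor of P-TEFb, rose in all 5 treated groups, most in ACBI. The gene lies on chromosome 17 (45148475 to 45152098, hg38, plus strand). In the 3 DMSO libraries it was at 84.9, 85.0 and 90.3 CPM. The ACBI libraries held 226, 214 and 228 CPM, a 2.57-fold rise (log2 difference 1.36 ± 0.042 SE, adjusted p = 3.08e-22), and no treated library of any group overlapped DMSO. BD98 gave 119, 117 and 118 CPM (log2 difference 0.44 ± 0.043 SE, adjusted p = 7.76e-10). The libraries with 2-77 held 113, 109 and 119 CPM (log2 difference 0.39 ± 0.042 SE, adjusted p = 1.06e-08). These 2 groups overlapped each other, and both lay below every ACBI library.
P-16 and ENZA, the pair at 10 µM, gave the smallest rises. P-16 libraries were at 102, 102 and 104 CPM (log2 difference 0.25 ± 0.043 SE, adjusted p = 6.91e-05), and ENZA libraries at 102, 103 and 97.0 CPM (0.22 ± 0.043 SE, adjusted p = 0.000166). Every library of both groups lay above the highest DMSO library. In rank, 4.35% of the genes tested rose more than HEXIM1 in ACBI, 10.2% in BD98, 13.9% in 2-77, 15.1% in P-16 and 21.1% in ENZA.

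Ordered by level, HEXIM1 ran from ACBI through BD98, 2-77, P-16 and ENZA to DMSO. ACBI differed from BD98 (log2 difference 0.92, 95% interval 0.83 to 1.00, adjusted p = 3e-18), though at different doses. BD98 and 2-77 did not differ beyond their spread (0.053, interval -0.032 to 0.14, adjusted p = 0.326). The step from 2-77 to P-16 passed the test (0.14, interval 0.059 to 0.23, adjusted p = 0.0122), but without 2-77 replicate 3 it was 0.11 with an adjusted p of 0.0875. P-16 and ENZA did not differ beyond their spread at their shared dose (0.030, interval -0.056 to 0.12, adjusted p = 0.673).

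SERPINI1, the low-abundance neuroserpin gene on chromosome 3 (167735721 to 167825569, plus strand), also rose in all 5 treated groups. DMSO libraries held 3.84, 4.10 and 4.77 CPM. The ACBI libraries held 9.29, 10.0 and 10.6 CPM, a 2.33-fold rise (log2 difference 1.22 ± 0.11 SE, adjusted p = 3.92e-11). BD98 libraries held 8.67, 8.03 and 8.61 CPM (0.99 ± 0.11 SE, adjusted p = 1.88e-08). Both groups lay well above DMSO and did not overlap each other. Libraries with 2-77 held 6.29, 6.95 and 6.79 CPM (0.64 ± 0.11 SE, adjusted p = 3.21e-05). P-16 libraries held 6.998, 7.063 and 7.369 CPM (0.74 ± 0.11 SE, adjusted p = 1.17e-05). ENZA libraries held 7.42, 7.05 and 7.27 CPM (0.76 ± 0.11 SE, adjusted p = 2.73e-06). None of these 9 libraries was as low as the highest DMSO library or as high as the lowest BD98 library.
By level the order was ACBI, BD98, ENZA, P-16, 2-77 and DMSO. ACBI stood above BD98 by a log2 difference of 0.23 (interval 0.032 to 0.44, adjusted p = 0.0364), but this was not stable. Without any 1 of ACBI replicates 2 and 3 and BD98 replicates 2 and 3, the adjusted p was 0.0541 to 0.105. It was 0.261 when scaled by library totals and 0.0607 when only the 2 groups were fitted, and the difference did not pass in DESeq2. BD98 and ENZA (0.23, interval 0.018 to 0.43, adjusted p = 0.0741), ENZA and P-16 (0.020, interval -0.19 to 0.23) and P-16 and 2-77 (0.099, interval -0.12 to 0.31) did not pass. Further apart in the order, BD98 and ACBI stood above 2-77 (0.34 and 0.58, adjusted p = 0.00711 and 7.86e-06). P-16 and ENZA were below ACBI (-0.48 and -0.46, adjusted p = 0.00012 and 0.000161). These contrasts are also between doses.

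HEXIM1 and SERPINI1 thus shared a direction in every treated group. HEXIM1 was lower with ENZA than with 2-77 (log2 difference -0.17 ± 0.042 SE, adjusted p = 0.00816), 1 of 7 members called by edgeR (2 by DESeq2) in a contrast with 5.54% of all genes called by edgeR. BRD2 was at an adjusted p of 0.0524 there. SERPINI1 did not pass (0.12 ± 0.10 SE, adjusted p = 0.617), and the difference between these 2 genes' responses was not tested. Over the 18 libraries their log2 levels correlated with r = 0.771, and with r = 0.844 over the 15 libraries without ACBI. The libraries share their groups, so this r is a description of group differences.

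BRD2 and BRD3 went opposite ways with ACBI. BRD2 lies on chromosome 6 (32968594 to 32981505, plus strand) and was at 489, 481 and 492 CPM in DMSO. With ACBI it was at 695, 679 and 632 CPM, 37.3% higher (log2 difference 0.46 ± 0.040 SE, adjusted p = 2.29e-11), with no overlap. In ENZA it was at 458, 436 and 445 CPM, 8.4% lower (adjusted p = 0.0133). All ENZA libraries lay below DMSO, but the adjusted p was 0.0533 without DMSO replicate 3, 0.0785 without ENZA replicate 2 and 0.0614 when scaled by library totals. The 2-77 libraries (485 to 494 CPM) and BD98 libraries (463 to 519 CPM) overlapped DMSO. P-16 gave 455 to 472 CPM, all below DMSO (log2 difference -0.079, interval -0.16 to 0.0035, adjusted p = 0.164), and this passed when only the 2 groups were fitted (-0.078, adjusted p = 0.0434).

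BRD3, on chromosome 9 (134030324 to 134068026, minus strand), was at 99.4, 102 and 102 CPM in DMSO. ACBI gave 76.8, 76.0 and 73.6 CPM, 25.4% lower (log2 difference -0.42 ± 0.042 SE, adjusted p = 2.81e-10). BD98 gave 111, 117 and 118 CPM, 14.2% higher (0.19 ± 0.041 SE, adjusted p = 0.000274). Neither group overlapped DMSO, and they lay on opposite sides of it. The intervals for 2-77 (-0.081 to 0.086), P-16 (-0.11 to 0.059) and ENZA (-0.060 to 0.11) each included 0. In the order of levels, BD98 stood above ENZA (0.17, adjusted p = 0.00116) and P-16 above ACBI (0.40, adjusted p = 9.52e-10), and ENZA, 2-77, DMSO and P-16 between them did not differ from their neighbours beyond the spread.
BRD3 shares exon sequence with BRD3OS, a gene on the opposite strand. The libraries were made with a stranded kit, but whether the counting used strand is not given in the sources used here, so their reads may not be fully separated. BRD3OS rose by 0.28 (log2) with 2-77, 0.26 with P-16 and 0.21 with ENZA, groups in which BRD3 was not called, and by 0.40 with BD98, and it fell by 0.37 with ACBI (adjusted p = 9.63e-05, 0.000669, 0.00284, 4.23e-07 and 7.43e-07). The same annotation places antisense genes over exons of HEXIM1 (AC138150.1) and BRD2 (AL645941.3).

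Of the P-TEFb subunits, cyclin T1 fell with ACBI. CCNT1, on chromosome 12 (48688458 to 48716707, minus strand), was at 93.9, 94.1 and 91.6 CPM in DMSO and 66.6, 62.7 and 69.7 CPM in ACBI. The groups did not overlap, and CCNT1 was 28.8% lower with ACBI (log2 difference -0.49 ± 0.052 SE, adjusted p = 1.26e-09). BD98 libraries (93.7 to 108 CPM), 2-77 libraries (90.7 to 99.0 CPM) and ENZA libraries (88.1 to 91.6 CPM) overlapped DMSO. For BD98 the log2 difference was 0.097 (adjusted p = 0.116), but 0.14 without BD98 replicate 3 (adjusted p = 0.0362) and 0.16 under library totals (adjusted p = 0.0118). P-16 libraries (84.0 to 90.7 CPM) lay below it, with a log2 interval of -0.19 to 0.018 (adjusted p = 0.234). In the order of levels, P-16 and ACBI were the neighbours that differed (0.40, adjusted p = 5.75e-08). Further apart, P-16 and ENZA were lower than BD98 (-0.18 and -0.15, adjusted p = 0.00389 and 0.017), without overlap and at different doses.

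CDK9, the kinase subunit, lies on chromosome 9 (127786034 to 127790785, plus strand). It stayed within 62.1 to 72.0 CPM in all 18 libraries. ACBI (67.6 to 71.8 CPM) was called above DMSO (62.5 to 68.9 CPM) at a log2 difference of 0.11 (adjusted p = 0.0441), but the groups overlapped. Leaving out DMSO replicate 1 or 2 or ACBI replicate 1 or 2 gave adjusted p-values of 0.0992 to 0.194, and library totals gave 0.274. A stricter filter on low counts gave 0.0557, and a fit of only the 2 groups gave 0.142. BD98 (67.2 to 72.0 CPM) had the same log2 difference of 0.11 at an adjusted p of 0.0635, which became 0.0205 without DMSO replicate 3 and 0.0476 without BD98 replicate 2. The order of CDK9 levels was ACBI, BD98, 2-77, DMSO, ENZA and P-16, and no neighbours differed beyond their spread. Some groups further apart in that order did differ, at different doses. P-16 was lower than ACBI and BD98 (log2 difference -0.13 for each, adjusted p = 0.0132 and 0.0235). ENZA was lower than both as well (-0.13 for each, adjusted p = 0.0138 and 0.0242), with no overlap in any of these contrasts.

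CCNT2, which encodes the alternative cyclin T2, lies on chromosome 2 (134918822 to 134959341, plus strand) and was not called against DMSO with any compound. DMSO libraries held 57.4 to 64.4 CPM, and the group means of treated libraries ran from 55.8 ± 2.19 CPM in P-16 to 62.0 ± 2.30 CPM in ENZA (SD, n = 3). The 95% intervals for 2-77 (-0.23 to 0.063), BD98 (-0.26 to 0.030), P-16 (-0.27 to 0.026) and ENZA (-0.12 to 0.17) allow a change of up to about 0.27 in log2. In ACBI the libraries were at 50.9, 53.4 and 64.7 CPM, and replicate 3, the one with high ribosomal RNA, was the highest. With all 3 the log2 difference was -0.11 (adjusted p = 0.169), and without replicate 3 it was -0.21 (adjusted p = 0.00217). Scaled by library totals, all 3 libraries gave -0.15 (adjusted p = 0.0316). Without replicate 3, 7 of the 7 members were called, against 70.1% of the genes tested in that fit.

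Ratios of counts within a library do not depend on the scaling between libraries. The count of HEXIM1 relative to CDK9, the kinase it restrains, was 1.33 ± 0.025 in DMSO (SD, n = 3, range 1.31 to 1.36). It was 3.01 to 3.37 in ACBI, 1.66 to 1.73 in BD98, 1.64 to 1.72 in 2-77, 1.60 to 1.63 in P-16 and 1.45 to 1.64 in ENZA. All 15 treated libraries lay above the 3 DMSO libraries. The ratio of BRD2 to BRD3 was 4.82 ± 0.106 in DMSO, 8.86 ± 0.238 in ACBI and 4.22 ± 0.172 in BD98, and these ranges did not overlap. ENZA, at 4.35 ± 0.217, also lay below DMSO and overlapped BD98. The 2-77 (4.82 ± 0.0582) and P-16 (4.65 ± 0.193) libraries overlapped DMSO. The ratio of CCNT1 to CCNT2 was 1.54 ± 0.0698 in DMSO, 1.19 ± 0.116 in ACBI and 1.78 ± 0.067 in BD98, again without overlap between these groups. For this ratio the 2-77, P-16 and ENZA libraries overlapped DMSO.

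**Figure D3:**
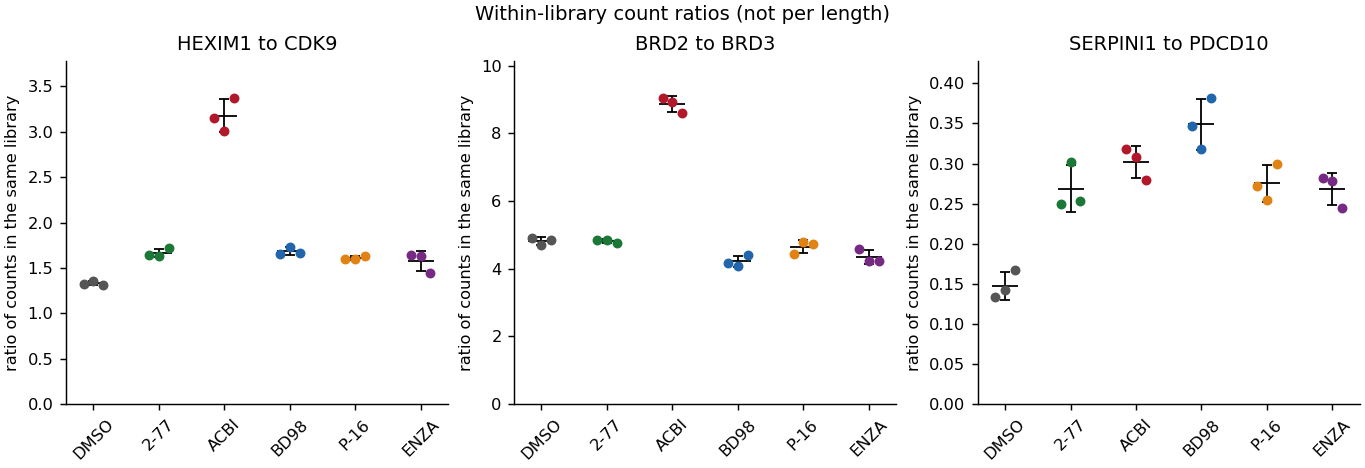
Ratios of counts within each library (vertical axes from 0, not per length) in the 6 conditions, with 1 point per library and bars for the mean and SD of 3. HEXIM1 to CDK9 and SERPINI1 to PDCD10 are above DMSO in every treated library, and BRD2 to BRD3 is highest in ACBI.

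Neighbouring genes were compared with the 2 members that rose in all groups. PDCD10, which begins 828 bases from SERPINI1 on the opposite strand, rose with ACBI (log2 difference 0.21, adjusted p = 0.0253) and fell with BD98 (-0.25, adjusted p = 0.0155). It was at -0.20 with 2-77 (adjusted p = 0.054), -0.14 with P-16 and -0.087 with ENZA, none of which passed. The ratio of SERPINI1 to PDCD10 counts was 0.133 to 0.167 in DMSO and 0.245 to 0.382 over the treated libraries. GOLIM4, the nearest tested gene on the other side of SERPINI1 at 183126 bases, fell with ACBI (-0.59, adjusted p = 8.35e-09) and BD98 (-0.23, 0.00636). It was not called with 2-77 (0.003), P-16 (0.10) or ENZA (0.089). ACBD4, which encodes an acyl-CoA-binding protein and lies 4298 bases before HEXIM1, rose with ACBI (0.71, adjusted p = 7.3e-11), 2-77 (0.41, 1.04e-05), ENZA (0.34, 0.000133) and P-16 (0.22, 0.0168), and was at 0.14 with BD98 (0.0996). HEXIM2, the paralog of HEXIM1 that lies 8075 bases beyond it, was not called with any compound, with log2 differences from -0.12 to 0.19.

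At their shared dose of 10 µM, P-16 and ENZA could be compared directly. Of the 7 members, 0 were called by edgeR with adjustment and 0 by DESeq2, against 21.4% of all genes called by edgeR. Without adjustment 1 had p under 0.05, which was CCNT2, higher with ENZA by 0.15 (log2, interval 0.0042 to 0.29, adjusted p = 0.138). The widest interval of the ENZA to P-16 difference belonged to SERPINI1 (-0.19 to 0.23), and those of BRD2 (-0.13 to 0.034), BRD3 (-0.035 to 0.13), CDK9 (-0.095 to 0.099) and CCNT1 (-0.069 to 0.14) were narrower.

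Other genes that BET inhibitors are known to induce in other cells were counted with HEXIM1 and SERPINI1, and the 10 genes reported here, a part of the list, include 8 histone genes. Of these 10, 10 rose with ACBI (median log2 difference 1.44), also without ACBI replicate 3 (median 1.42). With BD98, 10 rose (median 0.47). With 2-77, 7 rose (median 0.36), with ENZA 5 rose (median 0.16), and with P-16 2 rose and 1 fell (median 0.017). The 2 that rose with P-16 were HEXIM1 and SERPINI1 themselves. Of all genes tested, 35.4% were called higher and 36.6% lower with ACBI, and 24.5% in each direction with BD98. With 2-77 these shares were 20.5% and 20.2%, with ENZA 18.2% and 18.1%, and with P-16 12.4% and 11.6%. They are also the background for the list counts on all libraries below. In ACBI the linker histone gene H1-2 rose by 1.69 ± 0.047 and H2BC21 by 1.78 ± 0.036 (log2 ± SE, adjusted p = 2.74e-23 and 9.94e-27). H2BC12 rose by 0.70 ± 0.038 with BD98 (adjusted p = 1.5e-15), H1-2 by 0.45 ± 0.048 with 2-77 (adjusted p = 8.27e-09), and H2BC12 by 0.18 ± 0.038 with ENZA (adjusted p = 0.000457). H2BC21 fell by 0.12 with P-16 (adjusted p = 0.0133). Histone genes resemble one another in sequence, so their single values are less certain.

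**Figure D4:**
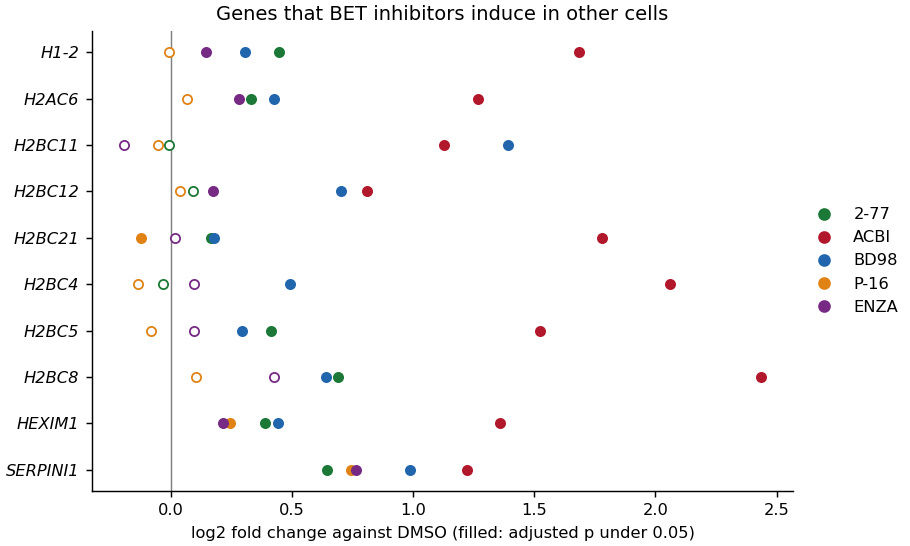
Log2 fold change against DMSO (horizontal axis) of 10 genes that BET inhibitors induce in other cells (vertical axis), coloured by compound, filled where the adjusted p was under 0.05. Red ACBI points lie to the right of 0 for the 10 genes, and for P-16 HEXIM1 and SERPINI1 are the filled points above 0.

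In the 7SK particle, HEXIM1 stood apart from its partners. MEPCE, which caps 7SK RNA, fell by 0.76 (log2) with ACBI, 0.16 with 2-77 and 0.14 with ENZA (adjusted p = 9.57e-15, 0.00761 and 0.0177). LARP7, which stabilises 7SK, fell by 0.21 with ACBI (adjusted p = 0.00351), with overlapping groups. The 7SK RNA itself, RN7SK, is not polyadenylated, and in ACBI it was at 10.3, 13.0 and 144 CPM, so its call there rests on replicate 3 and was lost without it. Of the 5 genes in this list, 2 rose and 2 fell with ACBI, or 1 and 2 without ACBI replicate 3. HEXIM1 rose and MEPCE fell with 2-77 and with ENZA, and HEXIM1 was the 1 gene called with BD98 and with P-16. The median log2 difference of the list was 0.19 with ACBI (-0.020 without replicate 3), -0.029 with 2-77, 0.063 with BD98, -0.087 with P-16 and 0.054 with ENZA.

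The super elongation complex, a scaffold and elongation factor assembly that carries P-TEFb, included 2 genes that moved one way with ACBI and the other way with the rest. ELL2, an elongation factor and androgen-induced gene, was at 59.3 to 62.6 CPM in DMSO, 158 to 186 CPM in ACBI and 25.5 to 32.3 CPM in all libraries with the other 4 compounds. AFF3, a scaffold, was at 44.6 to 47.9 CPM in DMSO, 90.1 to 94.2 CPM in ACBI and 19.7 to 24.3 CPM with the other 4. Both thus rose with ACBI (log2 1.47 and 1.00, adjusted p = 6.61e-18 and 6.66e-15) and fell with 2-77, BD98, P-16 and ENZA, by 0.96 to 1.11 (adjusted p from 5.7e-14 to 1.82e-11). AFF1, another scaffold, rose with 2-77 (0.44), ENZA (0.39), ACBI (0.34), P-16 (0.31) and BD98 (0.19), with adjusted p from 2.96e-10 to 0.00028. MLLT1, the reader subunit ENL, fell by 0.37 with ACBI (adjusted p = 8.51e-09). Of the 10 genes, 7 rose and 2 fell with ACBI (median 0.27), 3 and 3 with 2-77 (-0.054), 3 and 3 with BD98 (0.030), 2 and 3 with P-16 (0.068) and 2 and 2 with ENZA (-0.0039).

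**Figure D5:**
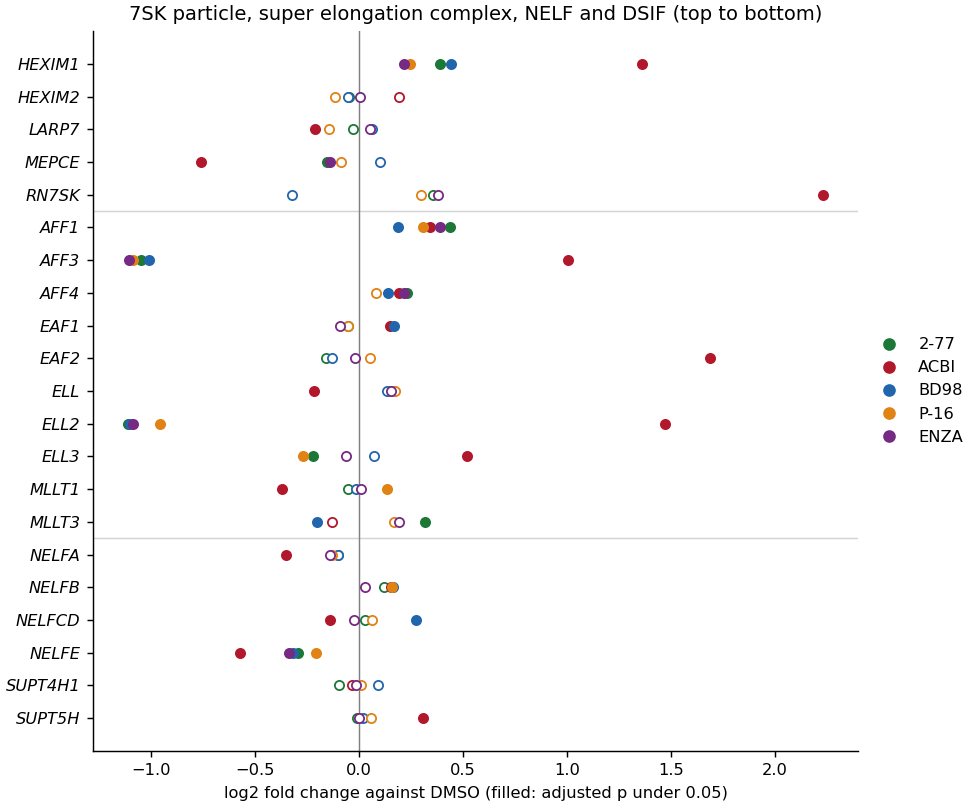
Log2 fold change against DMSO (horizontal axis) of the genes of the 7SK particle, the super elongation complex, and NELF and DSIF (vertical axis, in that order, separated by lines), coloured by compound and filled where the adjusted p was under 0.05. ELL2 and AFF3 lie to the right with ACBI and to the left with the other 4 compounds, and the RN7SK point for ACBI rests on replicate 3.

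NELF and DSIF are the pausing factors that P-TEFb phosphorylates. NELFE, the RNA-binding subunit of the negative elongation factor, fell with all 5 compounds, by 0.57 (log2) with ACBI, 0.34 with ENZA, 0.32 with BD98, 0.29 with 2-77 and 0.21 with P-16, with adjusted p from 7.85e-12 to 0.00155. SUPT5H, a subunit of DSIF, rose by 0.31 with ACBI (adjusted p = 1.27e-09), while NELFA fell by 0.35 (1.01e-05). NELFCD rose by 0.27 with BD98 (1.31e-06). Of 6 NELF and DSIF genes, 2 rose and 3 fell with ACBI, 2 and 1 with BD98, 1 and 1 with P-16, and NELFE was the 1 gene called with 2-77 and with ENZA. Their medians ran from -0.088 with ACBI to 0.055 with BD98.

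Other transcription kinases and cyclins (9 genes) included the Mediator kinase gene CDK8, which rose with ENZA (0.85), P-16 (0.67) and 2-77 (0.48) and fell with ACBI (-1.18) and BD98 (-0.73), with adjusted p from 6.87e-18 to 4.99e-09. CCNH, the cyclin of the CDK7 kinase, fell with all 5 compounds, by 0.60 with 2-77, 0.37 with ENZA, 0.30 with ACBI, 0.27 with P-16 and 0.13 with BD98 (adjusted p = 7.43e-12, 1.42e-07, 1.06e-06, 4.12e-05 and 0.0209). CDK7 rose by 0.61 with ACBI (adjusted p = 1.8e-07). Of the 9, 3 rose and 1 fell with 2-77, 4 and 3 with ACBI, 2 and 3 with BD98, 1 and 1 with P-16, and 1 and 2 with ENZA, with medians from -0.063 to 0.050.

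Outside these lists, the genes whose log2 levels followed HEXIM1 most closely over the 18 libraries, among 11597 genes of at least 4 CPM, were UBE2H (r = 0.989), DNAJB2 (0.987) and APLP1 (0.982). Over the 15 libraries without ACBI these were 0.905, 0.902 and 0.961. For SERPINI1 they were SEPTIN6 (0.920, and 0.917 without ACBI), PDSS2 (0.916 and 0.876) and PCDHB13 (0.914 and 0.889). BRD2 was followed by CUL7 (0.979), MAP1LC3B (0.971) and PLEKHG2 (0.970), which fell to 0.749, 0.737 and 0.763 without ACBI. For BRD3 they were NUP205, CEL and HIP1 (0.981 to 0.984, and 0.892 to 0.917 without ACBI). For CCNT1 they were ZNF124, RFC5 and HMGB3 (0.962 to 0.967), which fell to 0.827, 0.772 and 0.721 without ACBI. The best matches of CDK9 and CCNT2 were SMARCAL1 (0.848, and 0.795 without ACBI) and NORAD (0.835 and 0.814). The libraries share their groups, so these correlations describe group differences.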

How the data were processed

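The 18 libraries were grouped by the treatment in their labels. The deposited values are expected counts, estimated reads per gene with decimals, in 1 table of 20145 genes. Per the submitters' processing notes, STAR, Partek and DESeq2 were used with hg38, without versions or roles. The counting program and its use of strand are not given in the sources used here. The SCO277 columns were taken to be 2-77, and the PB_16 columns P-16. Unused columns numbered 0. Values of CDK9 and HEXIM1 were whole in all 18 libraries (tolerance 0.001), while those of BRD2 and BRD3 were mostly fractional.

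The quasi-likelihood test of edgeR 4.0.16 (R 4.3.3) was run on rounded counts. After filterByExpr (6 groups), 15422 genes remained and 4723 were removed. TMM scaling and a robust quasi-likelihood model of all 18 libraries (12 residual degrees of freedom) gave two-sided tests of 15 contrasts, adjusted by Benjamini-Hochberg over all genes tested, with a threshold of 0.05. The SE is the log2 difference over the root of F. The script was tested on simulated data. Depth was 16835093 to 36975028 counts per library, and intervals cover only counting error and the spread between these libraries. Replicate pairs differed beyond sampling noise (chi-square per degree of freedom 1.86 to 13.3, ribosomal RNA genes left out), most for ACBI replicate 3.

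Replicates were treated as unpaired with DMSO: over 8469 genes of at least 20 CPM, residuals of 12 of 45 same-number library pairs correlated above 0.1 (median -0.06), 3 of them the pairs of 2-77 with ACBI (0.355, 0.442 and 0.665). Alternatives were DESeq2 1.42.0, RLE factors, library totals, no filter, a stricter filter, fits of only the 2 groups, a replicate block, removal of ribosomal RNA genes and removal of each library in turn. List counts without ACBI replicate 3 were added after the data were seen. The members and lists were chosen with earlier results of these data known. All members are named. Per list and compound, the plan was to name at most 3 called genes of smallest p, from lists of textbook genes. Some genes are also given for compounds where they were outside those 3, such as AFF1, CCNH and RN7SK with ACBI. By correlation, 3 genes per member could be named, over genes of at least 4 CPM. Lists of PAF1 complex, other bromodomain and serpin genes were also counted. The remaining BET genes and 1 gene of the list of BET-inhibitor-induced genes are not reported here, and counts of that list leave it out, for a reason unrelated to its values. Promoter windows came from RefSeq, where all 7 members matched, and exon lengths from GENCODE v29. Figures used matplotlib 3.10.9 in Python 3.11.15.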

Additional observations from a re-analysis of the deposited data

How the results depend on the processing

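The direction and the call of HEXIM1 and SERPINI1 against DMSO held under all 14 alternatives for each compound, with log2 differences for HEXIM1 of 1.32 to 1.39 (ACBI), 0.42 to 0.51 (BD98), 0.36 to 0.42 (2-77), 0.23 to 0.28 (P-16) and 0.20 to 0.25 (ENZA). So did BRD2, BRD3 and CCNT1 with ACBI and BRD3 with BD98. Under library totals, 5 members were called with BD98 instead of 3, CDK9 (0.17, adjusted p = 0.0105) and CCNT1 (0.16, adjusted p = 0.0118) being added, and the calls over all genes in that contrast were 4640 higher and 2869 lower, against 3783 and 3776. That scaling moved the median of all genes by 0.062 with BD98. The replicate block changed no call of a member against DMSO or between neighbours. Only differences near 0 in the main fit changed sign. They passed neither there nor in the fit with the other sign, and the cause was not tested. CCNT2 in 2-77 minus ACBI kept its sign and passed without ACBI replicate 3 (0.13, adjusted p = 0.0449). Against DMSO with 2-77, RLE factors and DESeq2 gave -0.0060 and -0.0067 for BRD2, -0.0062 and -0.0073 for BRD3, and -0.0030 and -0.0036 for CCNT1. BRD2 with BD98 was 0.063 under library totals and 0.0034 with only the 2 groups. Between neighbours, CDK9 in ACBI minus BD98 was -0.10 under library totals and -0.00090 with the stricter filter. CDK9 in ENZA minus P-16 was -0.0057 (RLE factors), -0.0062 (DESeq2), -0.00030 (stricter filter) and -0.0010 (2 groups). CCNT2 in ACBI minus BD98 was -0.10 under library totals. CCNT2 in BD98 minus P-16 was -0.0074 (RLE factors), -0.0067 (DESeq2), -0.00030 (no filter), -0.0021 (stricter filter), -0.0018 (2 groups) and -0.0054 (no ribosomal RNA genes). Leaving out 1 library gave these ranges across 0: with 2-77, BRD2 -0.0064 to 0.011, BRD3 -0.0088 to 0.011 and CCNT1 -0.034 to 0.028; with BD98, BRD2 -0.051 to 0.026; with P-16, BRD3 -0.049 to 0.0017 and CDK9 -0.054 to 0.020; with ENZA, CDK9 -0.054 to 0.022 and CCNT2 -0.012 to 0.073. Between neighbours these were CDK9 in ACBI minus BD98 -0.014 to 0.045, CDK9 in ENZA minus P-16 -0.030 to 0.023, and CCNT2 -0.045 to 0.13 (2-77 minus ACBI), -0.085 to 0.080 (ACBI minus BD98) and -0.031 to 0.026 (BD98 minus P-16).

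Depth limits SERPINI1 most, at 66 to 260 counts per library.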

Other observations

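The lists not described above held these counts. Of all genes tested, 24.5% were called in each direction with BD98, and 35.4% higher and 36.6% lower with ACBI. With 2-77 20.5% were called higher and 20.2% lower, with P-16 12.4% and 11.6%, and with ENZA 18.2% and 18.1%. Among 37 tested genes of other bromodomain proteins, 22 rose and 5 fell with BD98 (median log2 difference 0.17, beside -0.0021 over all genes), 15 rose and 13 fell with ACBI (0.017), 8 and 6 with 2-77 (0.057), 2 and 7 with P-16 (-0.0025) and 3 and 5 with ENZA (0.049). ATAD2, an ATPase whose expression is linked to cell division, fell with 2-77 (-0.48), ENZA (-0.50) and P-16 (-0.41), with adjusted p-values of 1.05e-08, 5.24e-09 and 5.94e-07. KAT2B, an acetyltransferase, and TRIM24, a coactivator, rose with ACBI by 1.80 and 1.00 (log2, adjusted p = 9.35e-21 and 1.43e-18). BRPF3, a scaffold of acetyltransferase complexes, rose by 0.49 with BD98 (adjusted p = 9.01e-10), and PBRM1, a PBAF subunit, fell by 0.37 (adjusted p = 1.07e-08). The mean of PBRM1 was 248.2 CPM in DMSO, 191.9 CPM in BD98 and lowest in ACBI at 175.7 CPM. It was 221.6 CPM in ENZA, 224.5 CPM in 2-77 and 226.9 CPM in P-16.

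Of the 9 other serpins tested, 1 rose and 7 fell with ACBI (median -1.66), where SERPINI1 rose. Several of the 9 had very low levels, such as SERPINA1 (mean 0.98 CPM in DMSO, 0.028 CPM in ACBI) and SERPIND1 (0.98 and 0.082 CPM). SERPINB6 was abundant (176 and 165 CPM). The median with ACBI thus rests partly on genes with few counts. Of the same 9, 3 rose and 4 fell with 2-77, 2 and 5 with BD98, 2 and 1 with P-16 and 2 and 3 with ENZA. SERPINB5, known as maspin, rose with 2-77 (0.74), BD98 (0.74), ENZA (0.68), ACBI (0.65) and P-16 (0.47), with adjusted p-values from 2.44e-06 to 0.00254. Of 6 PAF1 complex genes, 2 rose and 2 fell with 2-77, 3 and 1 with ACBI, 3 and 2 with BD98 and 2 and 1 with ENZA, and with P-16 the 6 did not pass. LEO1, a subunit of that complex, fell by 0.69 with ACBI, 0.31 with BD98, 0.29 with 2-77 and 0.22 with ENZA (adjusted p = 8.75e-10, 0.000315, 0.000686 and 0.00795).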
